A study of Mus musculus with 7 samples.

Results

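Hebp1, which encodes heme-binding protein 1, was examined in mouse lung cells by cell class and genotype, together with 9 genes of heme and iron handling, Hmox1, Hmox2, Blvra, Blvrb, Slc40a1, Fth1, Ftl1, Tfrc and Slc11a1. These 10 genes, of 31253 in the count matrices, were chosen by name, and Hebp1 was selected on its measured levels: it was low in Smad4iko capillary cells and kept in Smad4iko alveolar macrophages. Those values are therefore described below without a test. Tests are given for the other 9 genes in every class and for Hebp1 in the other classes.

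The libraries came from 7 mice, 1 library each. The 3 control mice were Smad4fl/fl, with both Smad4 alleles floxed and no Cre. The 4 Smad4iko mice had the same floxed alleles and Rosa26-creERT2, a tamoxifen-dependent Cre recombinase expressed from a locus that is active in nearly all cells, so that Smad4 loss was not limited to one cell type. Tamoxifen (75 mg/kg, 5 intraperitoneal doses, postnatal days 21 to 26) was given to mice of either genotype, and lungs were collected at 8 weeks of age, digested and freed of red cells by lysis before droplet-based 3' single-cell RNA sequencing. SMAD4 is the shared partner of the receptor-activated SMAD proteins of the TGF-beta and BMP pathways.

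Heme is an iron-containing ring that is toxic when free, so cells bind it, break it down or pass it on. Heme oxygenases open the ring and release iron and biliverdin, biliverdin reductases turn biliverdin into bilirubin, ferritin shells of heavy and light chains store the iron, and ferroportin exports it. In the lung, alveolar macrophages take up surfactant, debris and red cells, and capillary endothelium lies directly against the blood.

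Promoter sequences were looked up because Hebp1 was the member that differed in the Smad4iko capillaries. RefSeq promoter windows of 300 bases (GRCm38.p6) were found for 8 of the 10 genes. Each was searched on both strands for the palindromic SMAD element GTCTAGAC, the GC-rich SMAD element GGCGCC and the core of the antioxidant response element, TGACNNNGC, which is bound by NRF2 and BACH1 at heme-responsive genes. The elements occurred in 0.213%, 11.9% and 12.4% of the 32851 promoter windows of the genome table. The Hebp1 window (chr6:135168166-135168465, minus strand) held none of the 3 and is printed in lower case throughout. It lies around the RefSeq start, inside the longer gene body of the annotation used for counting. The Blvra window (chr2:127070407-127070706, plus strand) held 1 antioxidant response element on the reverse strand and an upstream Tfrc window (chr16:32608646-32608945, plus strand) held 1 GC-rich SMAD element, both in capitals. Hmox2 has 2 overlapping windows (chr16:4756631-4756930 and chr16:4756696-4756995) with 3 GC-rich elements each, not printed. These matches describe the letters in the windows only.
Hebp1: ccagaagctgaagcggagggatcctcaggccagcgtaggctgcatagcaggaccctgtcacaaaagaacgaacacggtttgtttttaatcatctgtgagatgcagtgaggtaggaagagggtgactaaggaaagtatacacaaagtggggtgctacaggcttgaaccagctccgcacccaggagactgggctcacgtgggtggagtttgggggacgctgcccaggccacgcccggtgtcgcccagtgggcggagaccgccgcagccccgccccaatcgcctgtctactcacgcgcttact
Blvra: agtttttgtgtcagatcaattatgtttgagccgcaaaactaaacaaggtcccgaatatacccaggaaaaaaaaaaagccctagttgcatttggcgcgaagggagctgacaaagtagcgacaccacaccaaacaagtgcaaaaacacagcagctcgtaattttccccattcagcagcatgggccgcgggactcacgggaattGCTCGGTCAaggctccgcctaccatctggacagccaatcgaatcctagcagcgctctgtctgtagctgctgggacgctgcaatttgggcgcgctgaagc
Tfrc: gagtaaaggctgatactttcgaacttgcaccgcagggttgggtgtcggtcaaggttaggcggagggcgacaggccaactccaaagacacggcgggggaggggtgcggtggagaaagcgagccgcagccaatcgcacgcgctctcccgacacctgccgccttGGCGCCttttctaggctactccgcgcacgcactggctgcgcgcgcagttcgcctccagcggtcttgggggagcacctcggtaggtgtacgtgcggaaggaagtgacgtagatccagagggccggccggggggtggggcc

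Each library held 46449235 to 66557262 unique molecular identifiers (UMIs), and 49671 cells were kept, with medians of 4463 to 6324 UMIs per cell. Cells were grouped by marker genes into classes without using the 10 genes, and the 16 classes in which no library had fewer than 15 cells were tested. Smad4 itself was lower on average in Smad4iko in 16 of these 16 classes, at 38.3% to 93.8% of the control mean, and the libraries of the groups did not overlap in 6. In the aerocyte capillary class (aCap) the Smad4 means were 72.2 and 64.7 CPM (89.6% of the control mean), and the groups overlapped. In the general capillary class (gCap) they were 104.8 and 80.8 CPM (77.1%), without overlap. Of 55258 barcode sequences, 411 occurred in more than 1 library. Smad4iko 3 and 4 stood apart from the other 5 libraries: among alveolar macrophages, cluster 11, which held 25.3% to 43.5% of these cells in the other 5 libraries, held 1.11% and 0.923% in them. Their T cells, B cells, NK cells and neutrophils also lay mostly in other clusters than those of the other libraries (1441 and 1382 T cells in cluster 5, which held 3 to 44 in each other library), and most neutrophils of Smad4iko 2 (1488 of 2068) lay in cluster 10. Smad4iko 3 and 4 were both below the other 5 libraries in 14.8% of all gene and class pairs and both above in 13.8%. Some differences are therefore given without these libraries as well: Hebp1 in gCap, alveolar macrophages and adventitial fibroblasts, and Hmox1 and Fth1 in alveolar macrophages. Not every other difference is given without them. Levels are given as CPM, the counts of a gene scaled to a fixed total of UMIs of that class and library.

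Hebp1 (ENSMUSG00000042770, chromosome 6, 135137522 to 135198022, minus strand, mm10) was highest in alveolar macrophages among the 16 tested classes, to which the following order is limited. The control libraries held 435.5, 432.5 and 459 CPM there. Aerocytes (aCap), Car4-high capillary cells that spread thinly over the alveoli, followed with 93.3, 212 and 108 CPM, and general capillary cells (gCap), the progenitors of the capillary bed, with 58.5, 110.6 and 81.1 CPM. The macrophage range did not overlap that of any other tested class, whereas aCap and gCap overlapped each other. Adventitial fibroblasts at 49.4 ± 11.6 CPM (SD, n = 3) and interstitial macrophages at 49.3 ± 14.2 CPM could not be separated. Plasmacytoid dendritic cells came next at 31.7 ± 23.5 CPM, then cDC1 at 12.1 ± 4.10 and cDC2 at 12.0 ± 4.23 CPM. Neutrophils, monocytes and lymphocytes were at 2.11 to 8.40 CPM in the controls. Each neighbouring pair of classes below alveolar macrophages in this order overlapped. Alveolar macrophages contributed most Hebp1 UMIs of the named classes, 85.0% ± 12.5 (SD, n = 3) in the controls and 95.8% ± 0.926 (SD, n = 4) in Smad4iko. Unnamed cells are not in these shares. They were 18.3% of the cells of Smad4fl/fl 1 and 5.29% to 8.85% in the other libraries.

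**Figure D1:**
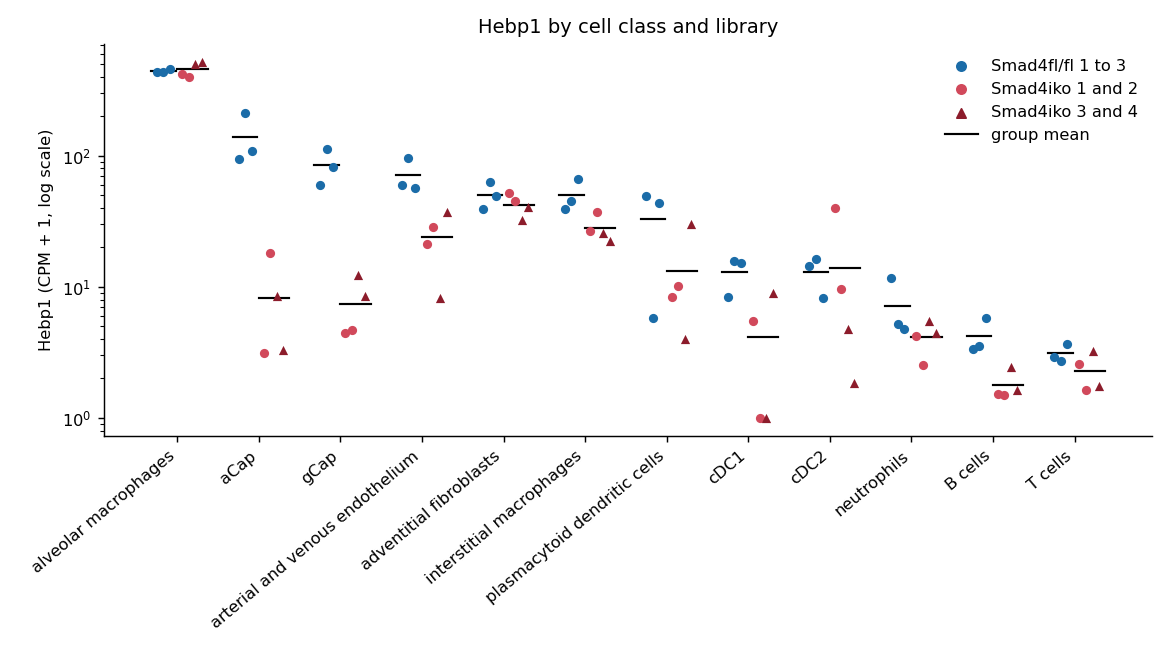
Hebp1 level (CPM + 1, log scale) in 12 cell classes; each point is a library, black bars are group means, and triangles mark Smad4iko 3 and 4. The 4 Smad4iko libraries lie at 2.11 to 17.2 CPM in aCap, below all 3 controls, and at 395 to 519 CPM in alveolar macrophages, around the controls.

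In the capillary classes of Smad4iko mice little Hebp1 remained. In aCap the 4 Smad4iko libraries held 2.11, 17.2, 7.49 and 2.27 CPM, in all 9 UMIs against 210 in the controls. In gCap they held 3.43, 3.65, 11.2 and 7.48 CPM, in all 36 UMIs against 760. All Smad4iko libraries were below all controls in both classes, which held 46 to 198 (aCap) and 44 to 1114 (gCap) cells per library. Group means differed by 19.0 times in aCap (138 ± 64.7 and 7.27 ± 7.08 CPM) and by 12.9 times in gCap (83.4 ± 26.1 and 6.45 ± 3.69 CPM; SD, n = 3 and 4). On the log2 scale the fitted differences were -4.35 ± 0.47 (SE) in aCap and -3.73 ± 0.33 in gCap. Since these values chose the gene, no test is attached to them. Without Smad4iko 2, the highest Smad4iko library in aCap, the aCap value was -5.18, and without Smad4iko 3 and 4 the gCap value was -4.54. Other choices gave smaller differences. Leaving out 1 library at a time gave -5.18 to -3.97 in aCap and -4.05 to -3.43 in gCap. The remaining alternatives gave -4.39 to -3.88 in aCap and -4.54 to -3.45 in gCap. Over all genes, edgeR called 2 of 5647 tested in aCap (0.0354%) and 1 of 9714 in gCap (0.0103%) at an adjusted p under 0.05. These rates describe the fits as a whole, and no call is read from them for Hebp1.

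The share of capillary cells with a Hebp1 UMI showed the same difference. It was 52.4% ± 11.5 in control aCap and 3.02% ± 2.85 in Smad4iko aCap, and 49.9% ± 17.9 and 4.32% ± 1.36 in gCap. T cells, which served as the background for free RNA, had 1.21% ± 0.592 and 0.727% ± 0.435. Their median depths of 5670 and 5703 UMIs per cell were close to those of gCap (5887 and 5955) and of control aCap (6080). Smad4iko aCap cells were shallower, at 4466 UMIs, which can lower their share before thinning. With every cell thinned to 2000 UMIs, the shares were 19.7% ± 5.77 and 0.481% ± 0.962 in aCap and 14% ± 4.23 and 0.949% ± 0.334 in gCap, beside 0.389% ± 0.111 and 0.304% ± 0.112 in T cells. The thinned aCap share of Smad4iko came from Smad4iko 2 alone (1.92%, and 0% in each other Smad4iko library). It is therefore too sparse to be placed against the T cell background. The thinned gCap share of Smad4iko was above that background on average.

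The markers that named the capillary classes were compared between the genotypes. Because they named the cells, their presence in both genotypes was fixed in advance and is no test of identity. The summed level of 10 aCap markers was 16436.7 to 18214.0 CPM in control aCap and 18021.1 to 19617.8 CPM in Smad4iko aCap, and that of 9 gCap markers was 14434.9 to 15120.9 and 15172.2 to 16921.0 CPM in gCap. The gCap sums were higher in all Smad4iko libraries than in all controls. Alveolar macrophage RNA, the richest source of Hebp1, was low in both capillary classes. The sum of 9 macrophage markers was 26.1 to 60.1 CPM in control gCap and 41.4 to 166 CPM in Smad4iko gCap, none of the 9 being at 0. Smad4iko 3 had both the highest macrophage marker sum and the highest Hebp1 level in gCap. In aCap the sums were 18.3 to 108 and 50.0 to 116 CPM, and there Smad4iko 3 had the highest sum at 7.49 CPM of Hebp1, while Smad4iko 2, with the highest Hebp1 level, had a sum of 62.0 CPM. The part of this RNA in the remaining Hebp1 was not tested.

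Alveolar macrophages kept Hebp1. The Smad4iko libraries held 421.5, 395, 500.7 and 519 CPM, on both sides of the 3 controls, with means of 442.5 ± 14.7 and 459 ± 60.1 CPM. The log2 difference was -0.02 ± 0.11 (SE). Thinned to 2000 UMIs, 58.4% ± 2.36 of control and 58.7% ± 4.92 of Smad4iko macrophages had a Hebp1 UMI. Within the class, cluster 1, the main cluster, held 447 and 406 CPM in Smad4iko 1 and 2 and 519 and 542 CPM in Smad4iko 3 and 4, against 451 to 510 CPM in the controls. Cluster 11 held less, 367 to 415 CPM in the controls and 376 and 387 CPM in Smad4iko 1 and 2, and had too few cells in Smad4iko 3 and 4. Without both of these libraries the log2 difference in the class was -0.13 ± 0.11.

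Arterial and venous endothelium also held less Hebp1 in Smad4iko, whereas lymphatic endothelium had too few UMIs to compare (8 in 48 control and 2 in 11 Smad4iko cells). Arterial and venous cells, of which 1 library held only 13, had 59.2, 95.03 and 55.8 CPM in the controls and 20.4, 27.6, 7.17 and 35.99 CPM in Smad4iko. The groups did not overlap, and the control mean was 3.07 times that of Smad4iko (exact permutation test, two-sided, p = 0.0286, the smallest that 35 arrangements allow; adjusted p = 0.0429 over 3 classes). Mature dendritic cells, which migrate to lymph nodes, had 69.1, 33.9 and 28.8 CPM in the controls, and 0 in Smad4iko 1 to 3 and 21.4 CPM in Smad4iko 4 (exact permutation test, p = 0.0286, adjusted p = 0.0429). That rests on 33 UMIs in 57 control cells and 4 UMIs in 59 Smad4iko cells. Smooth muscle had 33.9 and 32.1 CPM on average (exact permutation test, p = 0.886). These 3 classes were picked for testing after their values were seen. The adjustment over 3 classes does not cover that choice, so the adjusted p are a description and not passed tests.

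Cells of 2 further clusters carried markers of both capillary classes and were left unnamed. Cluster 26, with a median of 18831 UMIs per control cell and markers of both capillary types, held 99.6 CPM in the controls (95% exact Poisson interval 91.6 to 108) and 4.80 CPM in Smad4iko (2.48 to 8.38). Cluster 20, with a median of 1016 UMIs, held 89.3 CPM (69.0 to 114) and 18.8 CPM (6.88 to 40.8), the latter from 6 UMIs and unevenly spread, with 0, 74.0, 0 and 46.2 CPM in the Smad4iko libraries against 81.9, 108 and 120 CPM in the controls. These intervals cover counting error only. In alveolar fibroblasts, 822 of whose 935 cells came from Smad4fl/fl 1, Hebp1 was at 41.1 CPM (36.2 to 46.3) and 31.5 CPM (20.4 to 46.5). Intervals of the groups overlapped in these fibroblasts.

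Outside endothelium and alveolar macrophages, Hebp1 was fitted in 5 classes, and 0 of these passed an adjusted p of 0.05 with edgeR (1 at an unadjusted p under 0.05). Adventitial fibroblasts, the connective tissue cells around large vessels, had 38.5, 61.6 and 48.0 CPM in the controls and 50.5, 43.8, 31.4 and 39.8 CPM in Smad4iko, which overlapped (log2 difference -0.11 ± 0.24). Interstitial macrophages had 38.4, 44.3 and 65.3 CPM in the controls and 25.9, 35.99, 24.6 and 21.5 CPM in Smad4iko. All Smad4iko libraries were below all controls there, but edgeR gave an adjusted p of 0.795 (unadjusted p = 0.0126, log2 difference -0.91 ± 0.30). Over the alternatives other than leaving out 1 library, this difference was -1.21 to -0.56. The summed level of 9 interstitial macrophage markers was 24255.2 to 32882.0 CPM in the controls, 30713.2 and 30012.3 CPM in Smad4iko 1 and 2 and 11426.9 and 12092.0 CPM in Smad4iko 3 and 4, whose part in the difference was not tested. The sum of 10 alveolar macrophage markers in interstitial macrophages was 689, 418 and 1812.2 CPM in the controls. In Smad4iko it was 1016.4, 1125.6, 623 and 332 CPM. The part of alveolar macrophage RNA in the Hebp1 level of interstitial macrophages was not tested. In B cells the groups did not overlap either, with 2.36, 2.51 and 4.83 CPM in the controls and 0.522, 0.504, 1.45 and 0.642 CPM in Smad4iko, but these rest on 23 and 11 UMIs and could not be fitted. The other 3 fitted classes were T cells, neutrophils and cDC2, at log2 differences of -0.56, -0.76 and 0.03.

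The 5 genes whose levels over the 32 class and genotype means were most like those of Hebp1, of 12295 compared, were Epm2a, Kazald1, Gdf15, Mertk and Lrp12, with Pearson r from 0.834 to 0.859 on log2(CPM + 1). The points share libraries and depth, so r is a description. In alveolar macrophages, Kazald1 had 81.1 and 84.6 CPM in control and Smad4iko, and Lrp12 203 and 178 CPM. Epm2a, whose product removes phosphate from glycogen, had 8.70 and 4.16 CPM in gCap and 2.71 and 2.45 CPM in aCap. Mertk, a receptor for apoptotic cells, had 32.6 and 31.2 CPM in control and Smad4iko gCap and 121 and 154 CPM in aCap. Gdf15, a stress-induced cytokine of the TGF-beta family, had 92.2 and 30.03 CPM in aCap and 10.1 and 10.9 CPM in gCap.

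Genes around Hebp1 were compared next. Fam234b overlaps the first bases of Hebp1 on the other strand and Gm19434 lies within it on the other strand. Whether counting used the strand is not given in the sources used here, so reads of overlapping stretches cannot be assigned with certainty. Fam234b had 1457 UMIs and Gm19434 22 UMIs in all tested classes together. Of 46 annotated genes whose bodies reach within 1 Mb, 17 were tested in at least 1 class, and 0 of their 128 tests passed an adjusted p of 0.05 with edgeR, while DESeq2 called 6. At an unadjusted p under 0.05 there were 26 (20.3%), 18 of them lower in Smad4iko, against 6.79% of all 120421 tests. Emp1 gave 6 of the 26 and Borcs5 gave 5. Tests of 1 gene in several classes come from the same mice and are not independent. Emp1, which encodes an epithelial membrane protein, lies 164.5 kb from the start of Hebp1 and was below 0 on the log2 scale in 11 of 11 classes, from -1.74 to -0.11. In classical monocytes Emp1 held 212, 581 and 345 CPM in the controls and 198, 147, 62.2 and 79.9 CPM in Smad4iko (edgeR adjusted p = 0.132). Gprc5a, an orphan receptor, held 59.6, 47.4 and 42.4 against 18.9, 25.9, 13.04 and 16.5 CPM in the same cells (edgeR adjusted p = 0.0959). Lockd, a noncoding RNA downstream of Cdkn1b, held 2.78, 2.04 and 2.02 against 6.04, 5.97, 6.67 and 8.22 CPM in T cells (edgeR adjusted p = 0.278). Emp1, Borcs5, Gprc5a and Lockd were picked after their values were seen. The Rosa26 locus with the creERT2 insert lies 22.1 Mb from Hebp1 on the same chromosome, and the insert was carried by all Smad4iko and no control mice, so carrying it and the loss of Smad4 cannot be told apart here.

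**Figure D2:**
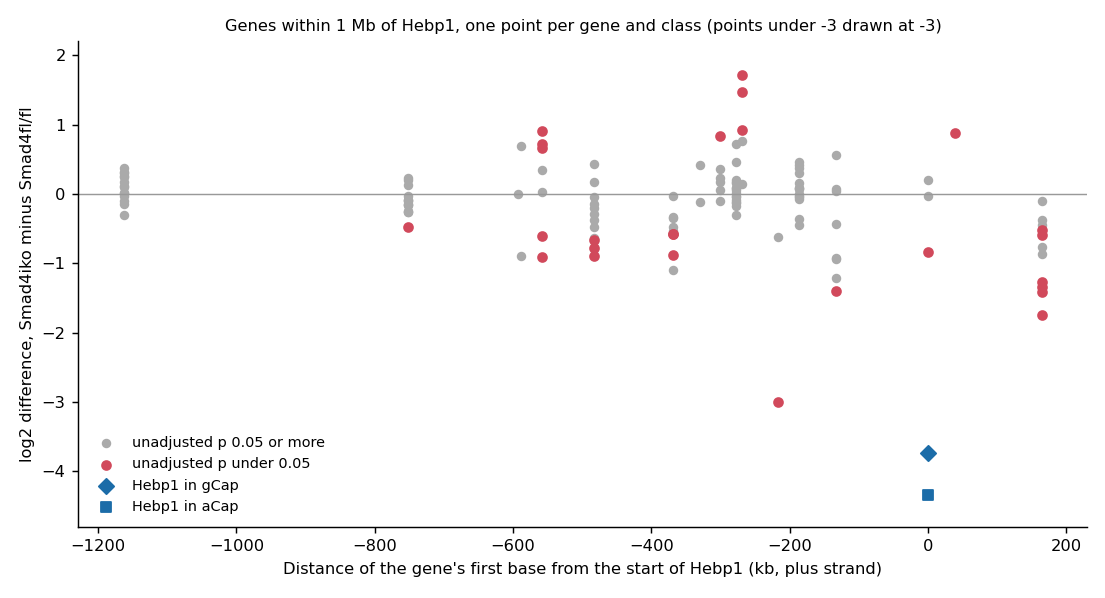
Genes whose bodies reach within 1 Mb of Hebp1: distance from the start of Hebp1 (kb) against the log2 difference in each class, Smad4iko minus Smad4fl/fl; red points have an unadjusted edgeR p under 0.05. Hebp1 in gCap (-3.73) and aCap (-4.35) lies below the other genes, apart from Apold1 in interstitial macrophages, which had 0 UMIs in Smad4iko and is drawn at -3.

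The other 9 genes showed no change with genotype that passed the test. Over the 16 classes, 118 member tests were made outside the values that chose Hebp1, and 0 passed an adjusted p of 0.05 with edgeR, where 0.0141% of all tests passed. DESeq2 called 1 of its 142 tests with an adjusted p, Fth1 in gamma-delta T cells. At an unadjusted p under 0.05 there were 12 (10.2%, against 6.79% of all tests). The groups did not overlap in 8 tests with lower and 4 with higher Smad4iko values, 6.78% and 3.39%, beside 4.18% and 3.74% of all tests. The median log2 difference of the member tests was 0.02 and that of all tests 0.00445.

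**Figure D3:**
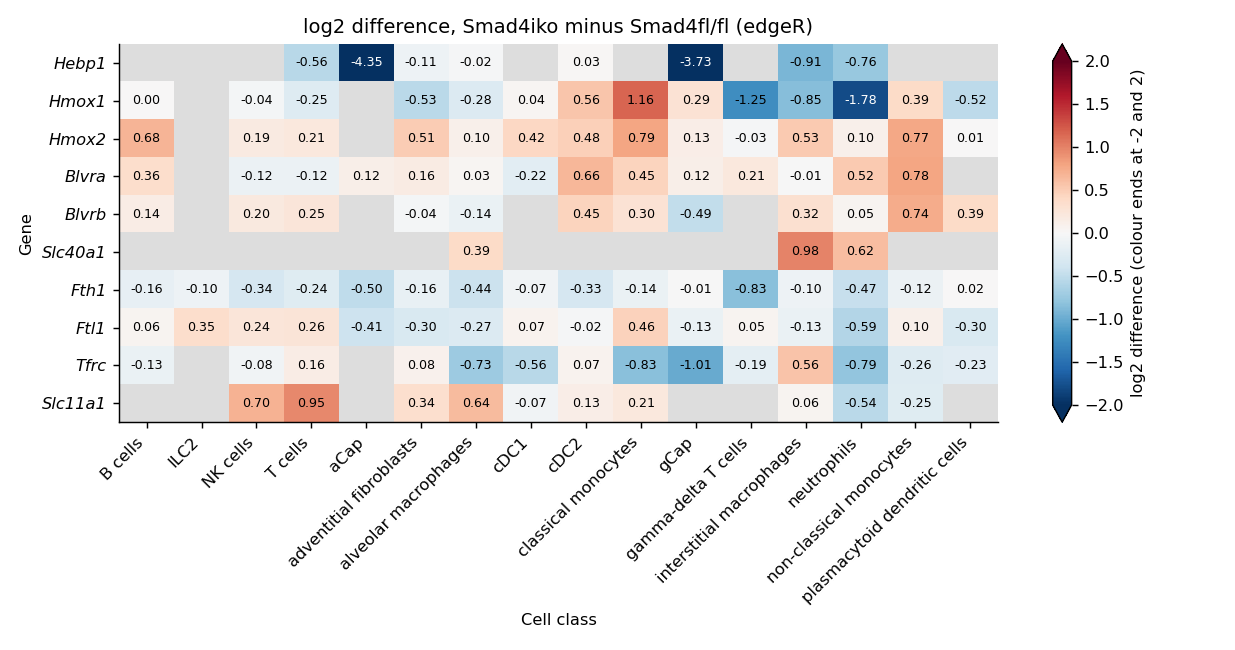
Log2 difference (Smad4iko minus Smad4fl/fl, edgeR) of the 10 genes in the 16 classes; colour ends at -2 and 2 and grey cells were not fitted because of low counts. Hebp1 in aCap (-4.35) and gCap (-3.73) stands below all other cells of the plot, the next being Hmox1 in neutrophils (-1.78).

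Hmox1 encodes the inducible heme oxygenase, the first step of heme breakdown. Control levels were highest in alveolar macrophages, at 1584.5 ± 431.7 CPM, and interstitial macrophages, at 1172.8 ± 225.4 CPM, and lowest in T cells, at 10.4 ± 4.51 CPM. In alveolar macrophages the controls held 2060.1, 1476.0 and 1217.3 CPM, and the Smad4iko libraries held 2789.5, 2159.7, 183 and 154 CPM. Smad4iko 1 and 2 were above all controls and Smad4iko 3 and 4 far below them, a spread within 1 genotype of 18.1 times. Over the group the log2 difference was -0.28 ± 0.92 (edgeR adjusted p = 0.972), and without Smad4iko 3 and 4 it was 0.63 ± 0.22.

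Both monocyte classes had Smad4iko 1 and 2 above and Smad4iko 3 and 4 below all controls, and interstitial macrophages did not. In classical monocytes Hmox1 was 291, 617 and 232.5 CPM in the controls and 1837.4, 1554.1, 149 and 89.6 CPM in Smad4iko. In non-classical monocytes, which patrol vessel walls, it was 916.5, 729 and 439 against 1672.5, 1314.2, 379 and 274 CPM. Interstitial macrophages had 1265.0, 1337.5 and 916 CPM in the controls and 784, 1211.5, 206 and 317 CPM in Smad4iko, with Smad4iko 1 below and Smad4iko 2 within the controls. In 13 of 16 classes Smad4iko 3 and 4 were both below the other 5 libraries. In neutrophils, 1 of these classes, a control library stood apart as well: Smad4fl/fl 1 held 2858.0 CPM against 161 and 183.5 CPM in the other 2 controls, and Smad4iko held 516, 324, 155 and 103.5 CPM. Hmox1 was not called in any of the 14 classes in which it was fitted, with adjusted p of 0.488 or more.

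The macrophage split was present within cluster 1 of the alveolar macrophages, where Hmox1 held 2526.3 and 2036.0 CPM in Smad4iko 1 and 2 and 192 and 153 CPM in Smad4iko 3 and 4. The sum of 10 alveolar macrophage markers was 16830.5 and 17487.1 CPM in Smad4iko 1 and 2, 23461.7 and 21487.4 CPM in Smad4iko 3 and 4, and 14744.4 to 18024.5 CPM in the controls. The part of the difference between libraries in these values was not tested.

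**Figure D4:**
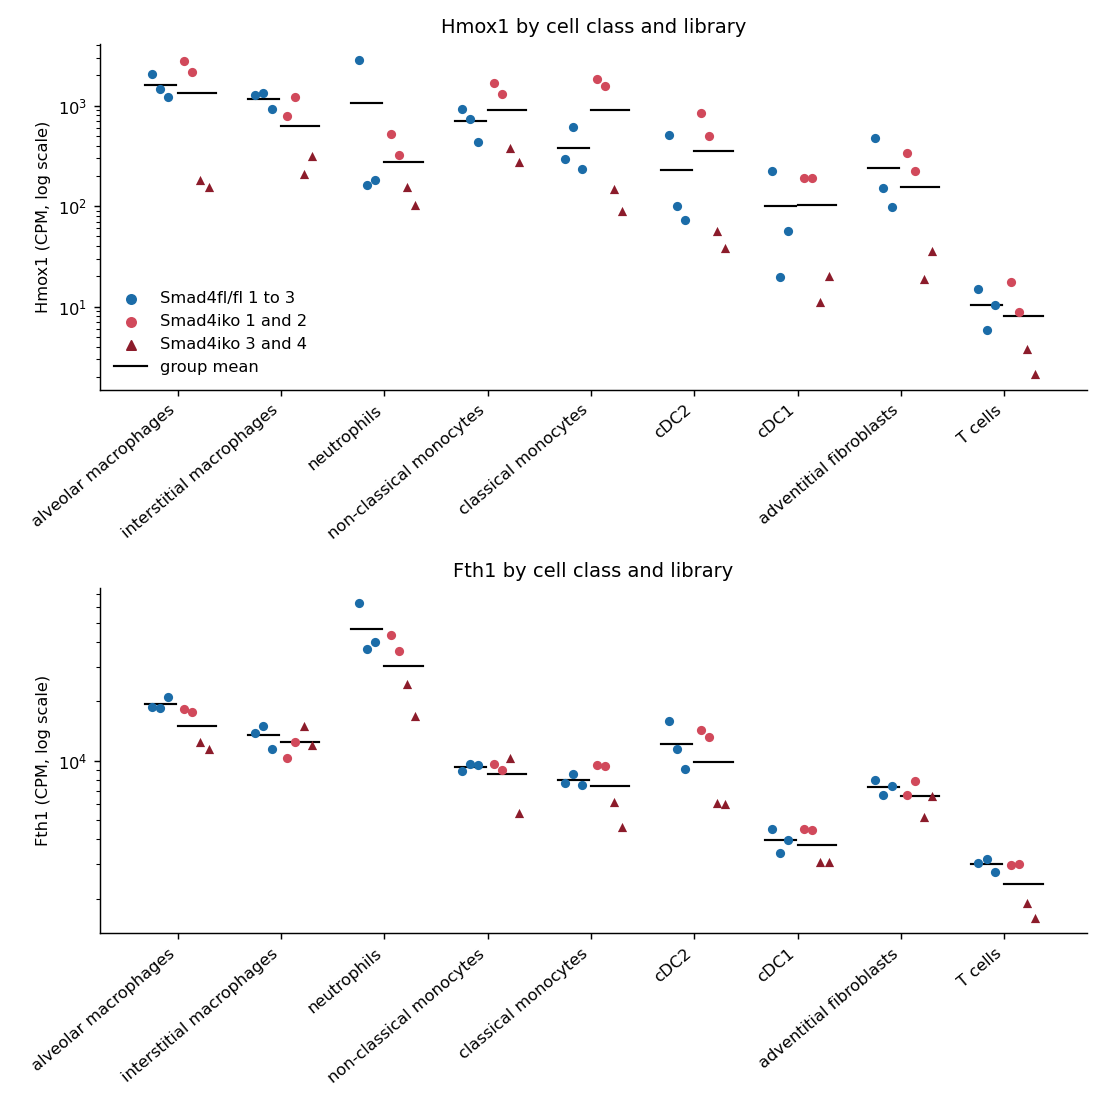
Hmox1 (top) and Fth1 (bottom) in 9 classes (CPM, log scale); each point is a library, bars are group means and triangles are Smad4iko 3 and 4. For Hmox1 the triangles lie lowest in all the classes drawn but cDC1, where 1 control library lies between them, and Smad4iko 1 and 2 lie highest in alveolar macrophages and in both monocyte classes.

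Hmox2, the constitutive heme oxygenase, varied little between classes, from 18.1 ± 1.67 CPM in adventitial fibroblasts to 58.5 ± 22.8 CPM in plasmacytoid dendritic cells. Its log2 difference was above 0 in 13 of 14 classes, and in 0 of these did it pass with edgeR. In B cells the controls held 21.3, 22.0 and 29.96 CPM and Smad4iko 33.9, 32.8, 38.6 and 37.9 CPM, with no overlap (log2 difference 0.68 ± 0.19, edgeR unadjusted p = 0.00406, adjusted p = 0.677). Classical monocytes likewise had 13.2, 34.5 and 41.0 against 55.9, 51.0, 66.2 and 68.9 CPM (log2 difference 0.79 ± 0.29, edgeR adjusted p = 0.278). Smad4iko 3 and 4 were both the highest libraries in 8 of 16 classes.

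The biliverdin reductases peaked in different macrophages. Blvra, which reduces the main form of biliverdin, was highest in alveolar macrophages, where all 7 libraries lay between 158 and 185 CPM and the means were 165 ± 6.14 and 176 ± 7.60 CPM. In neutrophils it was at 2.88 ± 1.32 CPM. Of the tested classes Blvrb, a flavin reductase that also acts on other biliverdin isomers, was highest in interstitial macrophages (205, 169 and 254 CPM in the controls and 266, 198, 342 and 229 CPM in Smad4iko), followed by adventitial fibroblasts at 134 ± 14.6 CPM and B cells at 85.8 ± 2.43 CPM. Non-classical monocytes had higher values of both in Smad4iko, with Blvra at 24.8 ± 4.51 and 41.6 ± 12.9 CPM and Blvrb at 48.2 ± 6.81 and 78.2 ± 18.6 CPM. The log2 differences were 0.78 ± 0.32 and 0.74 ± 0.26, with edgeR adjusted p of 0.587 and 0.531. Blvra in cDC2 did not overlap between the groups (22.0, 15.3 and 16.8 against 35.6, 30.1, 28.4 and 29.7 CPM), with a log2 difference of 0.66 ± 0.26 and an adjusted p of 0.933.

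**Figure D5:**
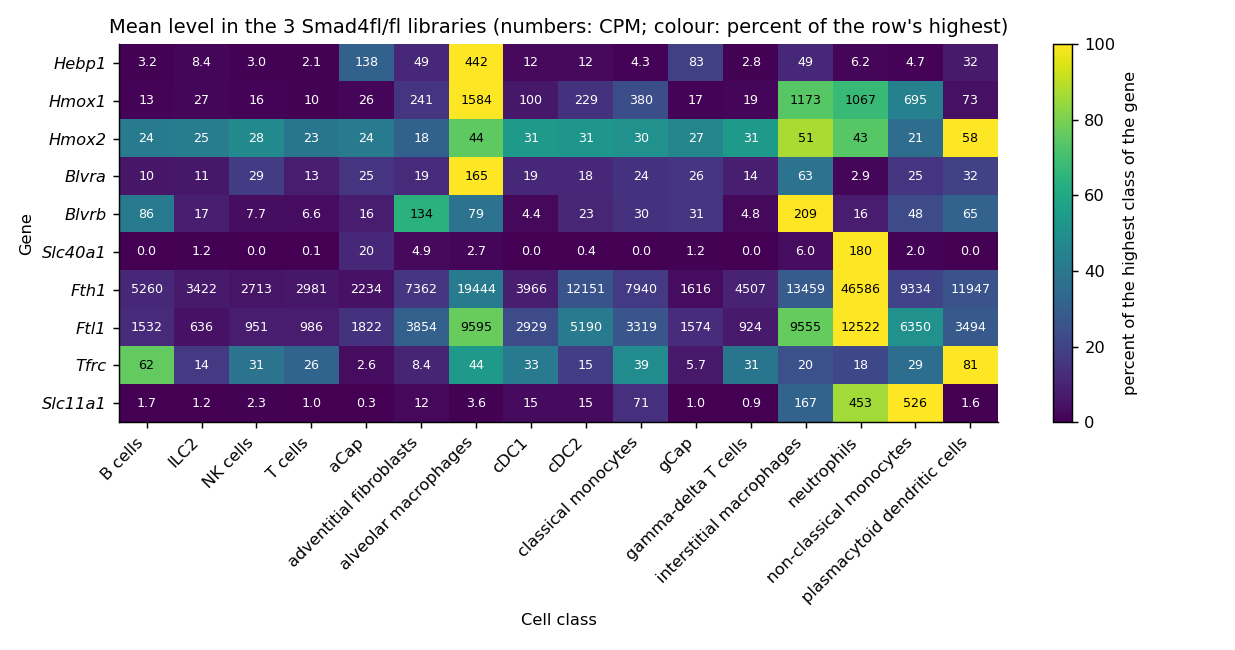
Mean level of each gene in the 3 Smad4fl/fl libraries by class: numbers are CPM, and colour is the percentage of the highest class in the same row, so rows are read one at a time. Hebp1, Hmox1 and Blvra peak in alveolar macrophages, Slc40a1, Fth1 and Ftl1 in neutrophils, Slc11a1 in non-classical monocytes, and Hmox2 and Tfrc in plasmacytoid dendritic cells.

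Slc40a1 encodes ferroportin, the iron exporter of vertebrate cells. Of the tested classes it was highest in neutrophils, with 220, 198.5 and 120 CPM in the controls and 208, 252, 214.5 and 345 CPM in Smad4iko, which overlapped (log2 difference 0.62 ± 0.28, edgeR adjusted p = 0.60). The summed level of 8 neutrophil markers in these cells was 52042.7 CPM in Smad4fl/fl 1, 111648.7 and 110230.3 CPM in the other 2 controls and 168588.0 to 225461.0 CPM in Smad4iko, without overlap. It moves with genotype beside each neutrophil value of Slc40a1, Hmox1, Fth1, Ftl1 and Slc11a1, and its part in them was not tested. The next tested class was aCap, with 17.8, 32.9 and 8.77 CPM in the controls and 23.3, 24.1, 44.96 and 18.2 CPM in Smad4iko, whereas gCap held 1.19 ± 1.19 and 2.60 ± 2.03 CPM. The aCap level thus stayed in the control range in Smad4iko apart from 1 library above it, in cells whose Hebp1 was low. Alveolar macrophages held only 2.68 ± 1.69 and 3.92 ± 1.48 CPM. The gene passed the filter on low counts in 3 classes.

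Fth1 and Ftl1 encode the heavy chain of ferritin, which oxidises iron, and the light chain, which helps to form its mineral core. Both have processed copies elsewhere in the genome, so reads may be shared with them. By control mean both were highest in neutrophils among the tested classes, where Fth1 held 4.66% and Ftl1 1.25% of all UMIs. For Ftl1 this rested on Smad4fl/fl 1. Control neutrophils held 20468.3, 9733.1 and 7363.1 CPM of Ftl1, and control alveolar macrophages 8437.5, 9473.7 and 10873.4 CPM. The Smad4iko means of Ftl1 were 7619.1 CPM in neutrophils, 8288.2 CPM in alveolar macrophages and 8665.7 CPM in interstitial macrophages. In alveolar macrophages Fth1 held 18740.5, 18519.5 and 21073.5 CPM in the controls and 18208.5, 17668.6, 12433.3 and 11470.7 CPM in Smad4iko. All Smad4iko libraries were below all controls, but Smad4iko 1 and 2 only slightly (log2 difference -0.44 ± 0.20, edgeR adjusted p = 0.787, and -0.13 without Smad4iko 3 and 4). As with Hmox1, Smad4iko 3 and 4 were both below the other 5 libraries in 12 of 16 classes for Fth1, and in 3 for Ftl1.

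Gamma-delta T cells had the lowest adjusted p of any member test. Fth1 held 5616.3, 4470.0 and 3435.6 CPM in the controls and 2563.4, 2771.7, 2035.0 and 1934.9 CPM in Smad4iko there, with no overlap (log2 difference -0.83 ± 0.17, edgeR adjusted p = 0.102). DESeq2 gave an adjusted p of 0.0025 for a log2 difference of -0.79, and the class held as few as 16 cells in a library. Summed markers of gamma-delta T cells were 3110.9 to 3793.8 CPM in the controls and 2437.1 to 3882.4 CPM in Smad4iko, and neutrophil markers, of a class rich in Fth1, 0 to 810 and 141 to 436 CPM. Ftl1 in the same cells was 924 ± 128.5 and 894 ± 91.3 CPM.

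In aCap both ferritin chains were lower on average in Smad4iko, and neither passed the test. Fth1 held 2166.8, 2046.8 and 2487.0 CPM in the controls and 1724.5, 2278.8, 1217.6 and 1208.1 CPM in Smad4iko (log2 difference -0.50 ± 0.20, edgeR adjusted p = 0.440). Ftl1 held 1674.5, 2006.6 and 1785.6 against 1456.1, 1631.6, 1236.4 and 1273.9 CPM, with no overlap (log2 difference -0.41 ± 0.15, edgeR adjusted p = 0.422). In gCap the Fth1 levels were 1615.7 ± 221 and 1638.0 ± 201 CPM, and the log2 difference was -0.01 ± 0.14. Blvrb in gCap had 30.6, 31.3 and 32.5 CPM in the controls and 20.1, 32.9, 20.6 and 19.8 CPM in Smad4iko, with a log2 difference of -0.49 ± 0.21 and an adjusted p of 0.942.

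Tfrc and Slc11a1 serve iron uptake and metal transport. Of the 16 tested classes, Tfrc, the transferrin receptor, was highest in plasmacytoid dendritic cells at 80.8 ± 29.1 CPM and B cells at 61.5 ± 6.37 CPM in the controls, and 2.57 ± 2.24 CPM in aCap. Alveolar type 2 and club cells, too few to be tested in some libraries, held more, 162 ± 26.0 CPM in the controls and 144 ± 62.0 CPM in Smad4iko. In alveolar macrophages it held 54.9, 51.2 and 25.2 CPM in the controls and 27.4, 35.97, 18.2 and 26.6 CPM in Smad4iko, which overlapped (log2 difference -0.73 ± 0.30, edgeR adjusted p = 0.752). Classical monocytes had 59.6, 27.6 and 30.1 against 14.4, 25.1, 19.1 and 17.9 CPM, with no overlap (log2 difference -0.83 ± 0.32, edgeR adjusted p = 0.313). Slc11a1, the phagosomal metal transporter NRAMP1, was found in non-classical monocytes (526 ± 95.7 and 442.5 ± 116 CPM), neutrophils (453 ± 158.5 and 274 ± 113 CPM) and interstitial macrophages (167 ± 71.4 and 172 ± 44.8 CPM). Alveolar macrophages had only 3.59 ± 0.819 and 5.99 ± 2.24 CPM.

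A wider list of 82 genes was read from the same fits, covering heme synthesis, heme transport, iron uptake, storage, export and regulation, mitochondrial iron, targets of NRF2 and BACH1, formyl peptide receptors, and globins. Of 662 tests of these genes, 0 were called higher and 0 lower with edgeR, 76 (11.5%) had an unadjusted p under 0.05, and DESeq2 called 25. The globins accounted for 39 of the 76, all higher in Smad4iko, out of 45 globin tests. Without the globins, 37 of 617 tests (6.00%) were under 0.05, beside 6.79% of all tests. The median log2 difference was 5.55 over globin tests and 0.02 over the whole list. The 11 genes of heme transport and scavenging had 9 of 76 tests under 0.05 without adjustment, the 12 of iron uptake 7 of 64, the 15 of iron regulation 10 of 141, the 9 of heme synthesis 3 of 84, and the 9 of mitochondrial iron 5 of 111.

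Globin RNA had the largest median difference of the lists, with higher means in Smad4iko and the highest values mostly in Smad4iko 3 and 4; no globin test passed after adjustment with edgeR. Hbb-bs, an adult beta globin, held 2.66, 5.23 and 2.68 CPM in control alveolar macrophages and 22.3, 18.6, 524 and 153 CPM in Smad4iko. Smad4iko 3 and 4 were both above the other 5 libraries in 14 of 16 classes for Hbb-bs, and Smad4iko 1 and 2 were both above all controls in 9. Cells named erythroid numbered 63 and 42 in Smad4iko 3 and 4 and 2 to 6 in each of the other libraries. In gCap, control library 2 was as high as these, with 1.98, 417 and 16.2 CPM in the controls and 25.5, 51.1, 430 and 236 CPM in Smad4iko. Red cells had been lysed before loading, and what part the free globin RNA had in any member's level was not tested.

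Targets shared by NRF2 and BACH1 were read beside Hmox1, which is one of their known targets. In alveolar macrophages Slc7a11, the cystine transporter, held 344, 271.5 and 320 CPM in the controls and 458, 330.1, 28.2 and 22.8 CPM in Smad4iko. Srxn1, sulfiredoxin, held 37.8, 36.4 and 34.9 against 68.0, 47.5, 11.4 and 11.9 CPM. Txnrd1, thioredoxin reductase, held 344, 246 and 269 against 391, 371.5, 106 and 99.3 CPM. For these 3 genes Smad4iko 3 and 4 were below the controls and Smad4iko 1 and 2 within or above them. Over the 16 classes Smad4iko 3 and 4 were both lowest in 9 for Srxn1, 8 for Txnrd1, 7 for Slc7a11, 8 for Gclc, 4 for Gclm, and in 0 for Nqo1, which was fitted in 1. For Gclm they were both highest in 2 classes. Me1 and G6pdx, also in this list, were not counted in this way. Over all tested genes, both libraries were lowest in 14.8% of gene and class pairs, from 8.14% in interstitial macrophages to 33.5% in T cells. The 8 genes of this list had 0 calls in 81 tests with edgeR, 2 at an unadjusted p under 0.05, and 0 with DESeq2. Slc7a11, Srxn1, Txnrd1, Gclc, Gclm, Nqo1 and Hbb-bs were singled out after their values were seen.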

How the data were processed

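The authors deposited filtered UMI count matrices, 1 per mouse, made with Cell Ranger 6.1.1 per the file headers. The submitters' processing notes also name fastp, UMI-tools and mm10, and 31107 of 31253 gene IDs were matched here to GENCODE M21. Whether counting used the strand is not given in the sources used here. Counts were not normalized before deposit.

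Barcodes with fewer than 300 genes, fewer than 600 UMIs or over 20% mitochondrial UMIs were left out, leaving 50955 of 55671. Scrublet at an expected rate of 6% marked 1284 doublets (2.52%), which were removed. Cells were clustered on 2000 variable genes, without the 10 genes described, Smad4 and sex-linked, immunoglobulin and mitochondrial genes. With 40 components, 15 neighbours and Leiden resolution 1 this gave 51 clusters. Clusters with markers of more than 1 class were not split and stayed unnamed. A cluster was named where its marker score was at least 1.5, the second class scored under 0.6 of it and at least 3 markers were detected; 9.08% of cells stayed unnamed. Raw counts were summed by class and library and tested with edgeR's quasi-likelihood test (TMM, filterByExpr, Benjamini-Hochberg over all genes of a class) where each library had 15 cells or more. For shares of cells, cells were also thinned to 2000 UMIs. Intervals of pooled counts are 95% exact Poisson and cover counting error only.

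The fixed naming rule took all 10 genes, list genes and neighbours of Hebp1 past the threshold, and the 5 genes most like Hebp1; other named genes are marked as chosen after their values were seen. The genes, lists and alternatives were chosen with earlier results of these data known. Alternatives were other size factors, DESeq2, no filter, each library left out, a replicate block, a covariate for Smad4iko 3 and 4, stricter cells, doublets kept, equal cells and thinned UMIs. The fits were tested on simulated counts. Versions were R 4.3.3, edgeR 4.0.16, DESeq2 1.42.0, Python 3.11.15, scanpy 1.11.5, leidenalg 0.10.2, scikit-learn 1.9.0, scipy 1.17.1 and matplotlib 3.10.9.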

Additional observations from a re-analysis of the deposited data

Results flagged for a closer look

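Blvrb in gCap had 1 Smad4iko library far from the other 3. Smad4iko 2 held 32.9 CPM, just above the 3 controls at 30.6 to 32.5 CPM, and the others held 19.8 to 20.6 CPM. The gap to the nearest library was 0.94 of the whole range, above Dixon's 95% critical value for 4 samples. Of 18 Smad4iko groups examined in this way 1 was marked, and chance marks about 1 in 20.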

How the results depend on the processing

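The Hebp1 difference kept its direction in gCap and aCap under every alternative run. With a covariate for Smad4iko 3 and 4 the log2 difference was -4.54 in gCap and -0.13 in alveolar macrophages, and leaving out both libraries, a choice made after seeing the data, gave -4.54 and -0.13 as well. Leaving out 1 library at a time gave -4.05 to -3.43 in gCap, -5.18 (without Smad4iko 2) to -3.97 in aCap and -0.07 to 0.02 in alveolar macrophages. Adding 350 cells of the large mixed capillary cluster to aCap, also chosen after seeing the data, gave -4.36. Cells thinned to equal UMIs gave -3.49 in gCap and no value in aCap, where too few counts remained.

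The count of called tests of the 10 genes was 0, and 3 without the filter on low counts (Fth1 in gamma-delta T cells, Hmox1 in neutrophils and Hmox1 in classical monocytes), 1 with DESeq2 and 1 with equal cells per library. For Fth1 in gamma-delta T cells these gave log2 differences of -0.74, -0.79 and -1.09, and the adjusted p ranged from 2.5e-04 to 0.374 over all alternatives. The wider list had 0 calls, against 62 without the filter, 25 with DESeq2, 3 without both Smad4iko 3 and 4, 2 with doublets kept, 1 with the covariate, 1 with equal cells per library and 0 to 6 with 1 library left out (6 without Smad4iko 2). Neighbours of Hebp1 had 0 calls, against 9 without the filter, 6 with DESeq2 and 0 to 1 with 1 library left out (1 without Smad4fl/fl 1). Where only the tool, filter or cells differ, the cause was not tested.

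Hmox1 in alveolar macrophages reversed from -0.28 to 0.63 with the covariate and 0.63 without Smad4iko 3 and 4, and leaving out 1 library gave -0.93 to 0.10 (0.08 without Smad4iko 3 and 0.10 without Smad4iko 4). Hebp1 in adventitial fibroblasts, at -0.11, reversed to 0.034 with the covariate, 0.026 without both libraries and 0.034 with equal cells, and ranged from -0.27 to 0.041 (without Smad4fl/fl 2) with 1 library left out.

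Replicate numbers shared by the groups were not treated as pairs. Over the 16 classes the median correlation of deviations between same-numbered libraries was 0.17 for number 1, -0.08 for number 2 and 0.13 for number 3. It was below 0 in 1 class for number 1, in 14 for number 2 and in 0 for number 3. Whether the numbers mark a shared origin is not known. With the replicate block 0 tests of the 10 genes, 9 of the wider list and 0 of the neighbours were called, and Hebp1 was at -3.79 in gCap and -4.07 in aCap. Small classes limit what depth can show: aCap held 46 to 198 cells per library, and the groups of 3 and 4 mice give an exact test no p below 0.0286.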
